A study of Homo sapiens with 8 samples.

Results

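Transcripts of kinesins, centromere proteins and the spindle checkpoint were followed by RNA-Seq in CSCs, the cancer stem cells sorted from MDA-MB-231, a mesenchymal triple-negative breast cancer cell line. The members were found by name. They are every gene whose symbol starts with KIF or CENP followed by a digit or a letter, and 13 genes named one by one, which are NDC80, NUF2, SPC24, SPC25, BUB1, BUB1B, BUB3, MAD2L1, AURKA, AURKB, PLK1, MKI67 and TOP2A. This gave 70 of the 12939 genes with values, namely 34 with a KIF symbol, 23 with a CENP symbol and the 13 named genes. All cells carried pOct4a-GFP, in which the regulatory region of Oct4a drives green fluorescence, and a stable RFP vector with an shRNA. The shRNA was scramble, a control without a target (3 libraries), or was directed at CDH2, which encodes N-cadherin (3 libraries), or at Cx43, the gap junction protein connexin 43 (2 libraries). The CDH2 knockdown was a single clone. Cells with high green and red fluorescence were sorted, kept overnight in culture, and their total RNA was depleted of ribosomal RNA. No age, time course or further treatment separated the groups. The labels do not say that the libraries of a group came from separate cultures, so each p-value measures only the spread between these libraries. CDH2 and the gene of Cx43 were not analysed here, which leaves both knockdowns without a check on the targeted transcript.

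Kinesins are motor proteins that move along microtubules by hydrolysing ATP. One set works mainly in dividing cells, where it pushes the spindle poles apart, aligns chromosomes and builds the cleavage site, and is made mostly in G2 and mitosis. Another set carries vesicles, organelles and mRNA in cells at any stage. The CENP proteins build the kinetochore, the plate on each centromere that holds microtubules, with the constitutive proteins bound through the cell cycle and the outer proteins recruited in mitosis. The checkpoint proteins delay anaphase until every kinetochore is attached, and tumor cells that cycle express the whole set. By role, the members with values were 13 mitotic kinesins, 13 transport kinesins, 6 other kinesins, 2 kinesin partners, 17 constitutive centromere proteins, CENPE and CENPF of the outer kinetochore, 4 subunits of the NDC80 complex, 4 checkpoint proteins, 3 mitotic kinases, the 2 proliferation markers MKI67 and TOP2A, and 4 genes with a CENP name and another role. KIF2B, a mitotic kinesin, and the transport kinesins KIF1A, KIF5A, KIF5C and KIF17 were on the lists of roles and had no value.

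Many mitotic genes are known to carry in the promoter a CCAAT box, bound by NF-Y, and a CHR element, bound by complexes that silence these genes outside G2 and mitosis. Both were searched as letters, TTTGAA for the CHR and CCAAT for the box, on both strands in the 250 bases before the start of each gene (RefSeq, GRCh38.p14). Promoters were found for 56 of the 70 members. CCAAT was in 11 of 13 promoters of mitotic kinesins (84.6%) and in 3 of 9 of transport kinesins (33.3%), beside 33.0% of all 27305 promoters of the same length and 35.6% of the 9274 promoters of genes with values. TTTGAA was in 5 of 13 (38.5%) and 1 of 9 (11.1%), beside 13.6% of all promoters and 8.1% of those of genes with values. The 150 bases before the start are printed, 5′ to 3′ on the strand of the gene with both motifs in capitals (reverse strand as TTCAAA and ATTGG), for the 4 mitotic kinesins that held both, since KIF11, KIF4A, KIF23 and KIF18A were also called higher in CDH2 shRNA below.
KIF11, chr10:92592980-92593129, plus strand: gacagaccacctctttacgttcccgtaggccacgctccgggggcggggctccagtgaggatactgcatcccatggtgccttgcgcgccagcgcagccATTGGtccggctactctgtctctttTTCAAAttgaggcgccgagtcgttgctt
KIF4A, chrX:70289954-70290103, plus strand: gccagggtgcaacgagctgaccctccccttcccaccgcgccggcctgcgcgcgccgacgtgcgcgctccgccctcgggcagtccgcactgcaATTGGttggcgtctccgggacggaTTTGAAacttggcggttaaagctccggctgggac
KIF23, chr15:69414199-69414348, plus strand: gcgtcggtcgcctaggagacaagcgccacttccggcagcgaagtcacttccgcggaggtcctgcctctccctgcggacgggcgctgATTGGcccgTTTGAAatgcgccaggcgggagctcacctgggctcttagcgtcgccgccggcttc
KIF18A, chr11:28108157-28108306, minus strand: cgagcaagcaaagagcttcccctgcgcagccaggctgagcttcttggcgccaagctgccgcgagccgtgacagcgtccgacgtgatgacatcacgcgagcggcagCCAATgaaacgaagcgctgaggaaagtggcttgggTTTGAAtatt
In these 4 the motifs lay close together near the start, with CCAAT upstream of TTTGAA in each. MKI67 and BUB1B are shown as a proliferation marker and a checkpoint gene that were called higher too, MKI67 with a TTTGAA that shares a base with a CCAAT box on the reverse strand.
MKI67, chr10:128126424-128126573, minus strand: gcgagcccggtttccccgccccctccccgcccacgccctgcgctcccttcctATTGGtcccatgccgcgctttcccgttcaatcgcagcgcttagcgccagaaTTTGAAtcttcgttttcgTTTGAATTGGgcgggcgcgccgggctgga
BUB1B, chr15:40160919-40161068, plus strand: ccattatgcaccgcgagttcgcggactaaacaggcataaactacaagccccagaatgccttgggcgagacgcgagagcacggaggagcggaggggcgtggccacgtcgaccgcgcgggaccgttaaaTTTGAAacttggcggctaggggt
The transport kinesins KIF5B and KIF3A are shown for contrast. KIF5B was the 1 transport kinesin with both motifs and held them farther apart, and neither was in the printed stretch of KIF3A.
KIF5B, chr10:32056426-32056575, minus strand: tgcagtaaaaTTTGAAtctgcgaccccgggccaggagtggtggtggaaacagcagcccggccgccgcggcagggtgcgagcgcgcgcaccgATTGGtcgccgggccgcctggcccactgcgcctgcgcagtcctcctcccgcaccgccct
KIF3A, chr5:132737547-132737696, minus strand: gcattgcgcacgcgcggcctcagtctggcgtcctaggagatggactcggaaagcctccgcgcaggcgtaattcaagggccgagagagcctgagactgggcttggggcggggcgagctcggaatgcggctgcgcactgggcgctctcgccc
Of the 13 members called higher in CDH2 shRNA that had a promoter in the table, 7 held TTTGAA and 9 held CCAAT. Of the other 43 members with a promoter, 6 held TTTGAA and 24 held CCAAT. Both counts use the calls without the length and GC correction given below. Of the members with TTTGAA, KIF11, KIF4A, KIF15, KIF18A, KIF23 and MKI67 then lost their call, BUB1B kept it and CENPA gained one. Of those without TTTGAA, KIF14, KIF4B, KIF24 and CENPO stayed called higher, BUB1 and CENPI did not, and CENPQ and CENPV were newly called. A match is a description of letters, and binding was not measured.

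Values are log2(CPM + 1), where CPM is the count of a gene scaled to the total of its library. They held no counts and the depth of the libraries is unknown, so the number of libraries sets the precision. The authors removed a batch effect before deposit, and the deviations of the 8 libraries from their group means then varied in only 2 directions. Scramble replicate 1 lay a median of 0.00542 from the mean of scramble replicates 2 and 3, which lay a median of 0.191 from each other, so scramble replicate 1 adds little spread of its own. Of the markers of a mesenchymal breast line all 7 had values, with VIM at 9.62 to 9.81 but ANXA1 only at 3.71 to 5.05. The median level over all genes was 4.70. ESR1, PGR, GATA3, FOXA1 and CDH1 of luminal epithelium had no values, and EPCAM was at 2.21 to 2.75. KRT8 and KRT18, also luminal, were at 7.99 to 8.78. One of 6 leukocyte markers, CD68, and 2 of 6 stromal markers, COL1A1 and PDGFRB, had values, with PDGFRB at 5.43 to 5.73 in scramble and 4.70 to 5.10 in the knockdowns. Transcripts of the mitochondrial genome took 0.594% to 1.01% of the summed CPM in scramble, 1.16% to 2.03% in CDH2 shRNA and 1.25% to 2.36% in Cx43 shRNA. This share moved with the groups in every comparison with scramble below, and its part in the results was not tested.

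Per kb of transcript the members were spread over a wide range in scramble CSCs. The median was 10.1 CPM per kb over 68 members with a known length, beside 8.13 over 11889 genes. It was 15.6 CPM per kb for the mitotic kinesins and 4.76 for the transport kinesins. The highest member was KIFC3, a minus-end motor of vesicles and adherens junctions, at 71.1 CPM per kb. The kinase AURKA followed at 69.4, the topoisomerase TOP2A at 56.6 and the kinase AURKB at 56.4. KIF26B, an atypical kinesin without motor activity, was lowest at 0.366 CPM per kb.

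The first comparison asked how the module differed between CDH2 shRNA and scramble CSCs. Of the 13 mitotic kinesins 7 passed the test as higher, and of the 13 transport kinesins none passed it. Of the 70 members, 15 were higher with an adjusted p under 0.05 (by limma with the Benjamini-Hochberg adjustment over all genes) beside 7.29% of all genes, and KIF9 was lower beside 6.98%. The 15 were the mitotic kinesins KIF4A, KIF4B, KIF11, KIF14, KIF15, KIF18A and KIF23, the other kinesins KIF24 and KIF26B, the centromere genes CENPI and CENPO, the centriole gene CENPJ, the checkpoint genes BUB1 and BUB1B, and MKI67. Only KIF14 was also past the fold threshold of the study methods, beside 0.866% of all genes. At an unadjusted p under 0.05, 24 members were higher beside 19.5% of all genes and 3 were lower beside 18.0%. The log2 fold change was above 0 in 56 of 70 members beside 51.0% of all genes, with a median of 0.16 beside 0.01. In 31 members every CDH2 shRNA library was above every scramble library, beside 27.1% of all genes, and in 4 every one was below, beside 24.8%.

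These calls depended on single libraries and on the model. None of the 70 was called when CDH2 shRNA replicate 1 or 2, Cx43 shRNA replicate 1 or 2, or scramble replicate 1 was left out. Of all genes 0.00% were called in each of these fits except that without scramble replicate 1, at 0.0773%. The loss of calls was therefore not particular to the members. Without CDH2 shRNA replicate 3 or scramble replicate 3, 24 were called, beside 41.0% of all genes. These were 20 higher and 4 lower, beside 2709 and 2600 of 12939 genes. Leaving out either library gave the same fit in every comparison, since the other was then alone under its replicate number. Without scramble replicate 2, 18 were called, all higher, beside 12.1% in both directions. With only the scramble and CDH2 shRNA libraries in the fit 0 were called, beside 0.00% of all genes. Without the replicate block 31 of 70 were called, beside 43.3% of all genes, which is near only when both directions are joined. Of the 31, 28 were higher and 3 lower, beside 2911 and 2696 of 12939 genes. They held 10 mitotic kinesins and the transport kinesins KIF1B, KIF5B and KIFC3. After a correction for transcript length and GC content 9 of 68 members were called higher, beside 6.71% of all genes, and KIF9 lower, beside 6.56%. These held 7 of the 16 calls and, newly, CENPA, CENPQ and CENPV, and the mitotic kinesins among them were KIF14 and KIF4B, 2 of 13.

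The second comparison asked the same of Cx43 shRNA. No member was called, beside 0.417% of all genes higher and 0.788% lower. At an unadjusted p under 0.05 by limma, 14 members were higher beside 12.2% of all genes and 2 were lower, KIF9 and KIF3A, beside 9.41%. The log2 fold change was above 0 in 54 members beside 57.6% of all genes, with a median of 0.18 beside 0.04. In 34 members both Cx43 shRNA libraries were above every scramble library, beside 31.4% of all genes, and in 2 both were below, beside 21.4%. Without the replicate block 17 of 70 were called, beside 24.3% of all genes, and with only the scramble and Cx43 shRNA libraries in the fit 13, beside 21.7%. After the length and GC correction 4 of 68 were called, beside 4.05%, and without CDH2 shRNA replicate 3 or scramble replicate 3 there were 12 of 70, beside 16.5%. The counts from these alternative fits join both directions, and so joined none stood far from the share over all genes. By direction they were less alike. Without the block 15 members were higher and 2 lower, beside 1810 and 1330 of 12939 genes. Without CDH2 shRNA replicate 3 or scramble replicate 3, 11 were higher and 1 lower, beside 1181 and 952. Both knockdowns were set against the same scramble libraries, so their likeness is not independent.

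**Figure D1:**
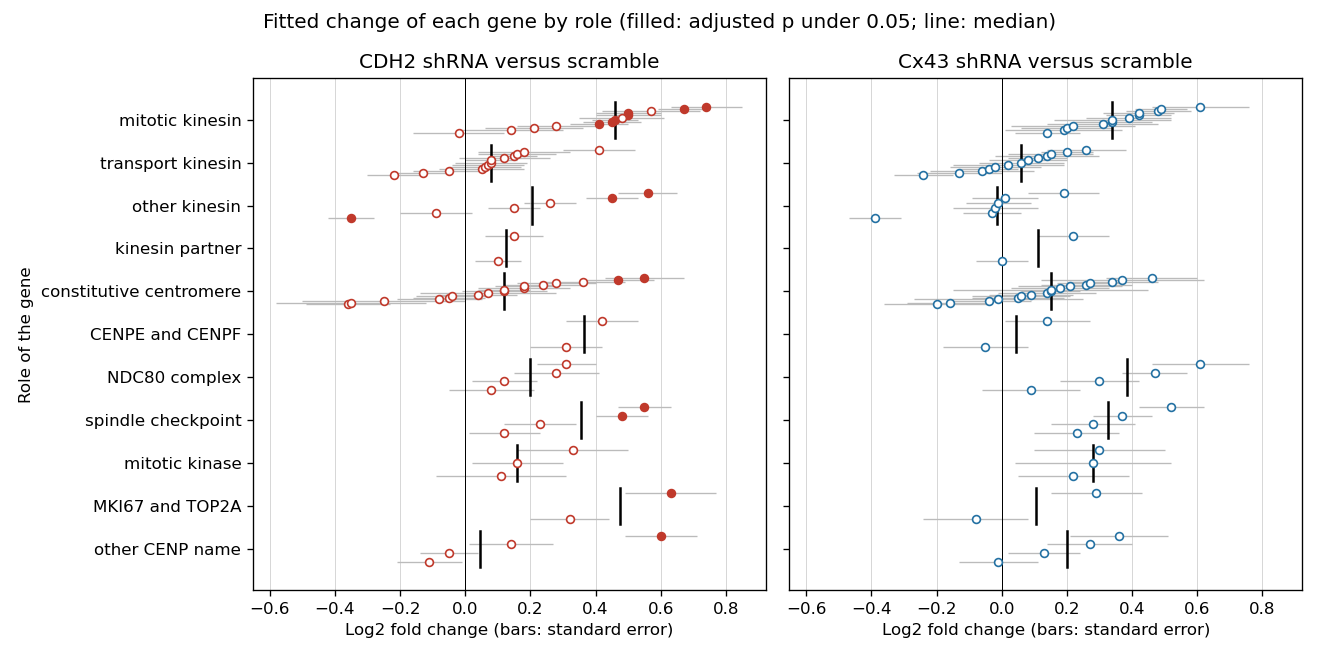
Fitted log2 fold change against scramble of each of the 70 members (x axis) by role (y axis), for CDH2 shRNA on the left and Cx43 shRNA on the right. Bars are standard errors, filled points have an adjusted p under 0.05 and the black line is the median of the role. The median of the mitotic kinesins was 0.46 and 0.34, and that of the transport kinesins 0.08 and 0.06.

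In CDH2 shRNA the log2 fold change was above 0 in 12 of the 13 mitotic kinesins, beside 51.0% of all genes. Of the 13, 7 were called higher, beside 7.29%, and 2 after the length and GC correction, beside 6.71%. Their median log2 fold change was 0.46 without it. KIF14, which acts in cytokinesis, had levels of 5.75, 5.70 and 5.83 in scramble, 6.41, 6.67 and 6.43 in CDH2 shRNA, and 6.25 and 6.05 in Cx43 shRNA. The CDH2 shRNA libraries were above the Cx43 shRNA libraries, which were above scramble. Its log2 fold change was 0.74 ± 0.11 (SE; adjusted p = 0.0225 by limma) in CDH2 shRNA, a 1.67-fold higher level, and 0.39 ± 0.13 (adjusted p = 0.18) in Cx43 shRNA.

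KIF11, the motor that pushes the spindle poles apart, had 6.31 in each scramble library, 6.78, 6.76 and 6.77 in CDH2 shRNA, and 6.79 and 6.81 in Cx43 shRNA. Both knockdowns were above scramble in every library and lay next to each other. It differed from scramble by 0.46 ± 0.07 (SE; adjusted p = 0.0225 by limma) and 0.49 ± 0.08 (adjusted p = 0.0584) on the log2 scale. KIF15, which can stand in for KIF11 on the spindle, had 4.86, 4.85 and 4.89 in scramble, 5.22, 5.36 and 5.25 in CDH2 shRNA, and 5.35 and 5.22 in Cx43 shRNA, again without overlap. It differed by 0.41 ± 0.09 (adjusted p = 0.037) and 0.42 ± 0.10 (adjusted p = 0.104) on the log2 scale.

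KIF18A, which damps chromosome movement at the spindle equator, had 4.80, 4.80 and 4.81 in scramble, 5.18, 5.32 and 5.24 in CDH2 shRNA, and 5.02 and 4.87 in Cx43 shRNA. The CDH2 shRNA libraries were highest, with a log2 fold change of 0.45 ± 0.09 (SE; adjusted p = 0.0332 by limma), and Cx43 shRNA gave 0.14 ± 0.10, the lowest of the mitotic kinesins there. The chromokinesin KIF4A had 6.15, 6.25 and 6.06 in scramble, 6.59, 6.63 and 6.75 in CDH2 shRNA, and 6.56 and 6.42 in Cx43 shRNA. No library of a knockdown reached down to scramble, and KIF4A differed by 0.50 ± 0.10 (adjusted p = 0.0339) and 0.34 ± 0.12 (adjusted p = 0.173). KIF4B differed by 0.67 ± 0.08 and 0.48 ± 0.10 on the log2 scale, but it is an intronless and nearly identical copy of KIF4A, so the split of reads between the pair is uncertain. Among other called members, KIF4A, KIF23 and KIF24 share exon sequence with genes on the opposite strand, and their counts are uncertain in the same way as those of any overlapping gene.

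The kinesins of the cleavage site lay above scramble in both knockdowns, and KIF23 passed the test in CDH2 shRNA. KIF23, the motor of centralspindlin, had 6.33, 6.38 and 6.30 in scramble, 6.74, 6.89 and 6.87 in CDH2 shRNA, and 6.86 and 6.65 in Cx43 shRNA, a difference of 0.50 ± 0.10 (SE; adjusted p = 0.034 by limma) and 0.42 ± 0.11 (adjusted p = 0.126). KIF20A, which brings the chromosomal passenger complex to the spindle midzone, had 5.67, 5.84 and 5.51 in scramble, 6.10, 6.04 and 6.32 in CDH2 shRNA, and 6.34 and 6.23 in Cx43 shRNA. Scramble overlapped neither knockdown, and KIF20A differed by 0.48 ± 0.13 (adjusted p = 0.0606) and 0.61 ± 0.15 (adjusted p = 0.112), the highest of the mitotic kinesins in Cx43 shRNA. KIF20A overlaps CDC23 and BRD8 on the opposite strand, and whether the counting used strand is not given in the sources used here. KIF20B differed by 0.28 ± 0.12 and 0.20 ± 0.14 and KIF18B, a depolymerising kinesin, by 0.57 ± 0.15 and 0.34 ± 0.18.

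KIF2C, which depolymerises microtubules at kinetochores, had 6.55, 6.77 and 6.35 in scramble, 6.57, 6.62 and 6.90 in CDH2 shRNA, and 6.91 and 6.64 in Cx43 shRNA. The groups overlapped, with log2 fold changes of 0.14 ± 0.16 and 0.22 ± 0.19. KIFC1, the minus-end motor that clusters spindle poles, differed by 0.21 ± 0.15 and 0.19 ± 0.18. The chromokinesin KIF22 was at -0.02 ± 0.14 in CDH2 shRNA, the lowest of the mitotic kinesins, and at 0.31 ± 0.17 in Cx43 shRNA. None of these 3 passed the test by limma in either knockdown.

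**Figure D2:**
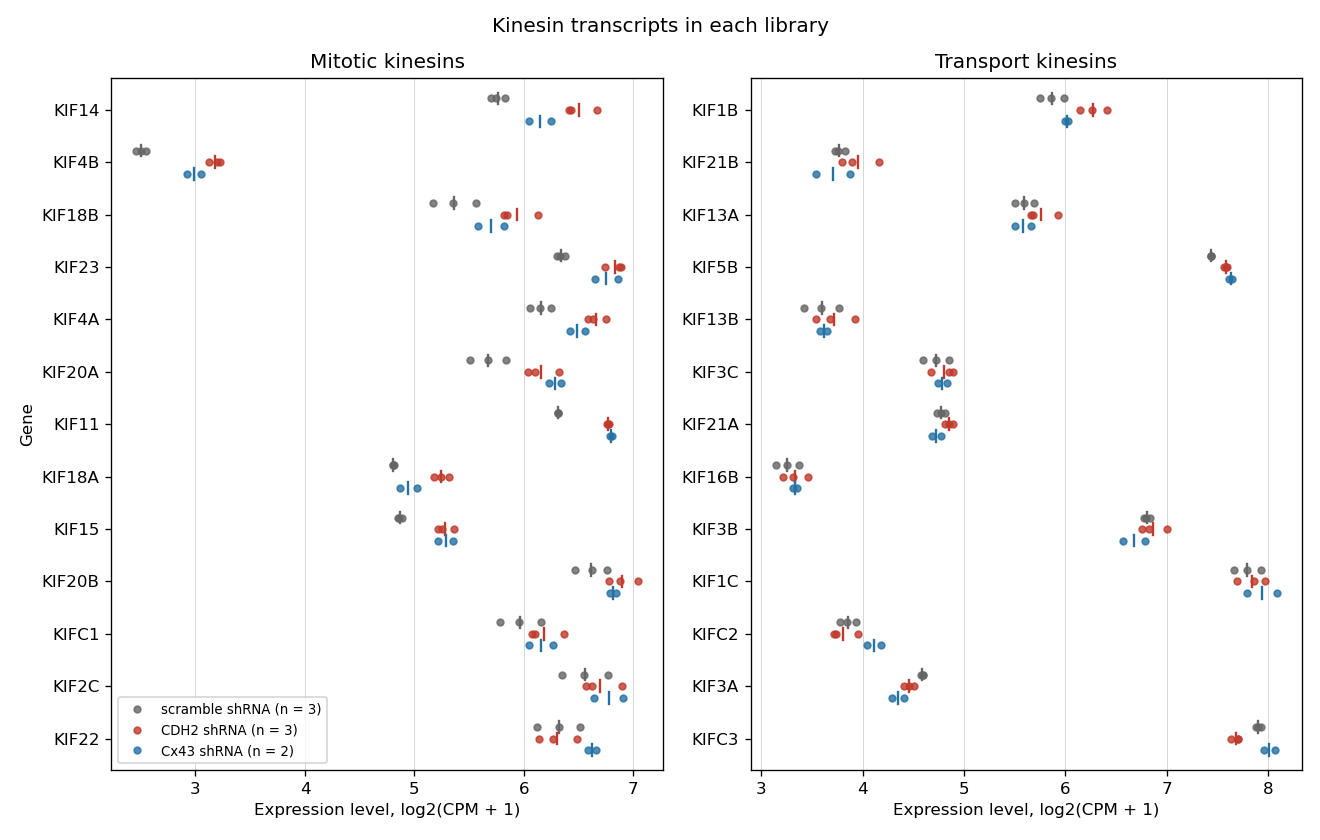
Level of each mitotic (left) and transport (right) kinesin in log2(CPM + 1) on the x axis, 1 row per gene, with a point for each library of scramble, CDH2 shRNA and Cx43 shRNA and a vertical line for the mean of the group. Genes are ordered by the log2 fold change in CDH2 shRNA, from KIF14 at 0.74 to KIF22 at -0.02 on the left and from KIF1B at 0.41 to KIFC3 at -0.22 on the right.

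Of the 13 transport kinesins, none was called in either knockdown by limma. At an unadjusted p under 0.05, KIF1B was higher and KIFC3 lower in CDH2 shRNA, and KIF3A was lower in Cx43 shRNA. The median log2 fold change was 0.08 in CDH2 shRNA and 0.06 in Cx43 shRNA. Its sign did not hold, since the first was -0.07 after the length and GC correction and the second -0.04 without scramble replicate 2 and -0.03 without Cx43 shRNA replicate 1. KIF5B, the ubiquitous heavy chain of conventional kinesin, had 7.44 in each scramble library, 7.57, 7.60 and 7.59 in CDH2 shRNA, and 7.65 and 7.62 in Cx43 shRNA. The knockdowns did not overlap scramble, and KIF5B differed by 0.15 ± 0.07 (SE; adjusted p = 0.18) and 0.20 ± 0.08 (adjusted p = 0.243).

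KIF3A, a motor of kinesin-II that builds the primary cilium, had 4.58, 4.59 and 4.59 in scramble, 4.41, 4.51 and 4.46 in CDH2 shRNA, and 4.41 and 4.29 in Cx43 shRNA. It was the lowest transport kinesin in Cx43 shRNA at -0.24 ± 0.09 (SE; adjusted p = 0.221 by limma), while its partner KIF3B overlapped scramble in both knockdowns at 0.06 ± 0.11 and -0.13 ± 0.13. KIF1B, a carrier of mitochondria and synaptic vesicle precursors, had 5.86, 5.75 and 5.99 in scramble, 6.26, 6.41 and 6.15 in CDH2 shRNA, and 6.03 and 6.00 in Cx43 shRNA. All knockdown libraries were above scramble, with 0.41 ± 0.11 (adjusted p = 0.0602) and 0.15 ± 0.13 (adjusted p = 0.543). KIF13A, an endosomal motor, overlapped scramble at 0.16 ± 0.12 and -0.02 ± 0.14. The minus-end motors did not pass the test, with KIFC3 at -0.22 ± 0.08 and 0.11 ± 0.09 and KIFC2 at -0.05 ± 0.11 and 0.26 ± 0.12.

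The contrast between the 2 sets could be followed in single libraries. The mean level of the mitotic kinesins was 5.63, 5.73 and 5.54 in scramble, 5.98, 6.03 and 6.14 in CDH2 shRNA, and 6.06 and 5.91 in Cx43 shRNA, without overlap between scramble and the knockdowns. The mean level of the transport kinesins was 5.38, 5.34 and 5.43, then 5.40, 5.56 and 5.41, then 5.48 and 5.36, and all groups overlapped. The mitotic mean therefore exceeded the transport mean by 0.25, 0.39 and 0.11 in scramble, 0.58, 0.47 and 0.73 in CDH2 shRNA, and 0.57 and 0.55 in Cx43 shRNA. Every knockdown library lay above every scramble library. The mean difference was 0.34 higher in CDH2 shRNA and 0.31 higher in Cx43 shRNA than in scramble. Between libraries with the same replicate number it was 0.33, 0.08 and 0.62 higher in CDH2 shRNA and 0.32 and 0.16 higher in Cx43 shRNA. The sign was the same in 5 of 5 and the size was not. These 5 differences are not independent, since both knockdowns use the same scramble libraries and deviations cancel within a replicate number. Without KIF21A, KIF21B, KIFC2 and KIFC3 the mean differences were 0.31 and 0.32. These means share libraries and genes and were given no test.

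**Figure D3:**
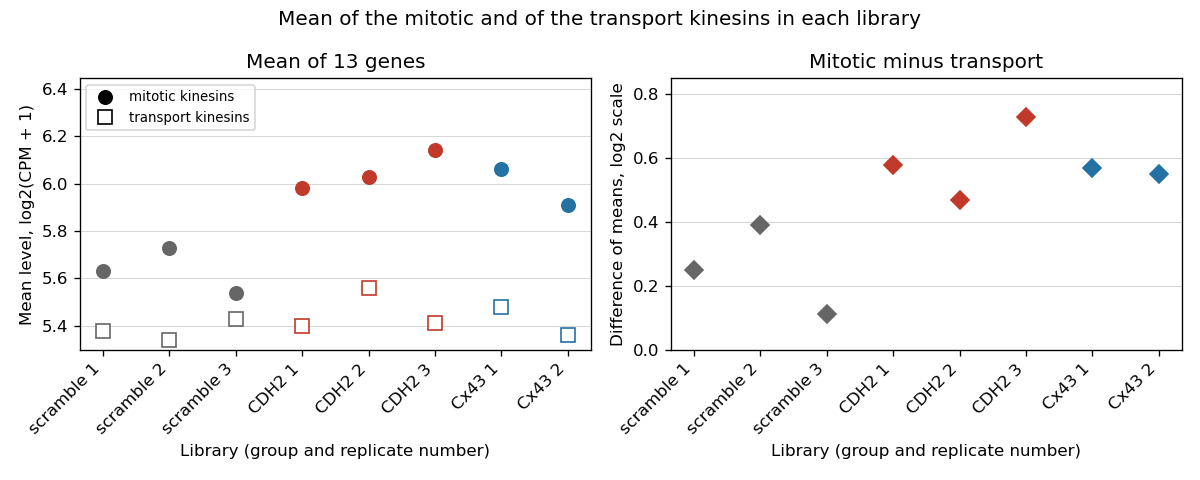
Mean level of the 13 mitotic (filled circles) and 13 transport kinesins (open squares) in log2(CPM + 1) in each library on the left, and the mitotic minus the transport mean on the right, with libraries on the x axis. The difference was 0.11 to 0.39 in scramble, 0.47 to 0.73 in CDH2 shRNA and 0.55 to 0.57 in Cx43 shRNA.

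The other kinesins held the only member that was called lower. KIF9, a motor of motile cilia and flagella, had 2.64, 2.64 and 2.63 in scramble, 2.29, 2.26 and 2.29 in CDH2 shRNA, and 2.23 and 2.26 in Cx43 shRNA. Both knockdowns were below scramble at a low level, with log2 fold changes of -0.35 ± 0.07 (SE; adjusted p = 0.0349 by limma) and -0.39 ± 0.08 (adjusted p = 0.0885). KIF9 shares sequence with KIF9-AS1 and KLHL18 on the opposite strand, which leaves its counts uncertain.

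KIF24, which caps the mother centriole and holds back cilia, had 4.09, 4.07 and 4.14 in scramble, 4.59, 4.78 and 4.62 in CDH2 shRNA, and 4.37 and 4.21 in Cx43 shRNA, with 0.56 ± 0.09 (SE; adjusted p = 0.0258 by limma) and 0.19 ± 0.11 (adjusted p = 0.386). KIF26B had 2.57, 2.61 and 2.55 in scramble, 2.96, 3.06 and 3.06 in CDH2 shRNA, and 2.66 and 2.52 in Cx43 shRNA. It was above scramble in CDH2 shRNA, at 0.45 ± 0.08 (adjusted p = 0.0318), and overlapped it in Cx43 shRNA at 0.01 ± 0.10. KIF2A, which depolymerises microtubules at spindle poles and in neurites, was at 0.15 ± 0.08 and -0.01 ± 0.10. The partners KIF1BP, which binds KIF1B, and KIFAP3, which joins KIF3A and KIF3B, were at 0.15 ± 0.09 and 0.10 ± 0.07 in CDH2 shRNA and at 0.22 ± 0.11 and 0.00 ± 0.08 in Cx43 shRNA, and neither was called.

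Among the 17 constitutive centromere genes the changes went both ways. In CDH2 shRNA 11 were above 0, beside 51.0% of all genes, and 2 were called higher, beside 7.29%. The median log2 fold change was 0.12. In Cx43 shRNA 13 were above 0, beside 57.6%, and none was called, beside 0.417% higher and 0.788% lower. The median there was 0.15. CENPO, of the complex that recruits PLK1, had 5.26, 5.36 and 5.19 in scramble, 5.69, 5.87 and 5.90 in CDH2 shRNA, and 5.67 and 5.38 in Cx43 shRNA. It was above scramble in every knockdown library, by 0.55 ± 0.12 (SE; adjusted p = 0.0392 by limma) and 0.26 ± 0.14 (adjusted p = 0.342), and it overlaps ADCY3 on the opposite strand. CENPI, which helps to load CENPA, had 4.31, 4.32 and 4.33 in scramble, 4.66, 4.92 and 4.78 in CDH2 shRNA, and 4.42 and 4.15 in Cx43 shRNA. It was higher in CDH2 shRNA only just past the threshold, at 0.47 ± 0.11 (adjusted p = 0.0491), and at -0.04 ± 0.13 in Cx43 shRNA.

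CENPA, the histone H3 variant that marks the centromere, had 4.35, 4.49 and 4.20 in scramble, 4.58, 4.44 and 4.73 in CDH2 shRNA, and 4.81 and 4.80 in Cx43 shRNA. The CDH2 shRNA libraries overlapped scramble and the Cx43 shRNA libraries were above all others, with 0.24 ± 0.12 (SE; adjusted p = 0.205 by limma) and 0.46 ± 0.14 (adjusted p = 0.153). CENPC, the scaffold that ties CENPA to the kinetochore, was at 0.28 ± 0.12 and 0.34 ± 0.14. CENPB, which binds the centromeric satellite repeat, was the lowest in both knockdowns, at -0.36 ± 0.13 and -0.20 ± 0.16. Its levels were 6.43, 6.58 and 6.32 in scramble, 5.95, 6.10 and 6.21 in CDH2 shRNA, and 6.39 and 6.10 in Cx43 shRNA, so that the CDH2 shRNA libraries were below scramble and the Cx43 shRNA libraries overlapped it.

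CENPE and CENPF of the outer kinetochore were both at an unadjusted p under 0.05 in CDH2 shRNA and were not called. CENPF had 7.92, 7.95 and 7.92 in scramble, 8.22, 8.46 and 8.36 in CDH2 shRNA, and 8.21 and 7.93 in Cx43 shRNA, with 0.42 ± 0.11 (SE; adjusted p = 0.0613 by limma) and 0.14 ± 0.13 (adjusted p = 0.596). CENPE, a kinesin by its motor domain that tethers chromosomes to the spindle, had 6.38, 6.50 and 6.27 in scramble, 6.60, 6.67 and 6.80 in CDH2 shRNA, and 6.42 and 6.24 in Cx43 shRNA. Both genes were above scramble in every CDH2 shRNA library and overlapped it in Cx43 shRNA, and CENPE was at 0.31 ± 0.11 (adjusted p = 0.105) and -0.05 ± 0.13. Of the genes with a CENP name and another role, CENPJ, which sets the length of centrioles, was called at 0.60 ± 0.11 (adjusted p = 0.0309), with 3.86, 3.75 and 3.97 in scramble and 4.42, 4.62 and 4.35 in CDH2 shRNA. The Cx43 shRNA libraries had 4.17 and 4.08, between those groups, at 0.27 ± 0.13. CENPV was at 0.14 ± 0.13 and 0.36 ± 0.15 and CENPBD1 at -0.11 ± 0.10 and -0.01 ± 0.12.

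The NDC80 complex, the rod that grips the microtubule end, had all 4 subunits above 0 in both knockdowns and none called. In Cx43 shRNA 3 of the 4 were higher at an unadjusted p under 0.05, beside 12.2% of all genes. Both Cx43 shRNA libraries were above every scramble library in 3 of the 4, beside 31.4% of all genes. SPC24 had 4.72, 4.88 and 4.56 in scramble, 4.95, 4.88 and 5.16 in CDH2 shRNA, and 5.38 and 5.28 in Cx43 shRNA. The Cx43 shRNA libraries were above all others, with 0.61 ± 0.15 (SE; adjusted p = 0.109 by limma), and CDH2 shRNA gave 0.28 ± 0.13 (adjusted p = 0.168). NDC80 itself had 4.31, 4.38 and 4.23 in scramble, 4.59, 4.56 and 4.69 in CDH2 shRNA, and 4.80 and 4.75 in Cx43 shRNA, without overlap between any groups, at 0.31 ± 0.09 (adjusted p = 0.0643) and 0.47 ± 0.10 (adjusted p = 0.0911). NUF2 was at 0.12 ± 0.10 and 0.30 ± 0.12, and SPC25 at 0.08 ± 0.13 and 0.09 ± 0.15. The median log2 fold change of the 4 was 0.20 in CDH2 shRNA and 0.38 in Cx43 shRNA.

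Of the 4 checkpoint genes, BUB1 and BUB1B were called higher in CDH2 shRNA. BUB1, a kinase that marks the inner centromere, had 6.85, 6.90 and 6.80 in scramble, 7.30, 7.31 and 7.37 in CDH2 shRNA, and 7.25 and 7.19 in Cx43 shRNA. BUB1B, the BubR1 subunit of the mitotic checkpoint complex, had 5.32, 5.36 and 5.29 in scramble, 5.81, 5.91 and 5.91 in CDH2 shRNA, and 5.91 and 5.78 in Cx43 shRNA. For both genes every knockdown library was above every scramble library. The log2 fold changes in CDH2 shRNA were 0.48 ± 0.08 (SE; adjusted p = 0.0253 by limma) for BUB1 and 0.55 ± 0.08 (adjusted p = 0.0224) for BUB1B, and in Cx43 shRNA 0.37 ± 0.09 (adjusted p = 0.11) and 0.52 ± 0.10 (adjusted p = 0.0702). BUB1B shares exons with the BUB1B-PAK6 readthrough, so its counts may hold reads of that transcript. MAD2L1, which blocks the anaphase-promoting complex, was at 0.23 ± 0.11 and 0.28 ± 0.13, and its partner BUB3 at 0.12 ± 0.11 and 0.23 ± 0.13, and neither was called.

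The 3 mitotic kinases were not called in either knockdown. AURKA, which matures the spindle poles, had 7.14, 7.33 and 6.96 in scramble, 7.22, 7.22 and 7.49 in CDH2 shRNA, and 7.46 and 7.27 in Cx43 shRNA. PLK1, which drives mitotic entry and centrosome growth, had 6.33, 6.55 and 6.14, then 6.52, 6.61 and 6.87, then 6.80 and 6.49. AURKB, the kinase of the chromosomal passenger complex, had 6.13, 6.43 and 5.84, then 6.16, 6.04 and 6.53, then 6.50 and 6.33. All 3 overlapped scramble in both knockdowns. Their log2 fold changes were 0.16 ± 0.14, 0.33 ± 0.17 and 0.11 ± 0.20 (SE) in CDH2 shRNA and 0.22 ± 0.17, 0.30 ± 0.20 and 0.28 ± 0.24 in Cx43 shRNA.

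Of the proliferation markers, MKI67 was called higher in CDH2 shRNA and TOP2A was not called. MKI67, the Ki-67 antigen that coats mitotic chromosomes, had 8.29, 8.41 and 8.19 in scramble, 8.77, 8.99 and 9.03 in CDH2 shRNA, and 8.39 and 8.05 in Cx43 shRNA. The CDH2 shRNA libraries were above all others and the Cx43 shRNA libraries overlapped scramble. Its log2 fold change was 0.63 ± 0.14 (SE; adjusted p = 0.0394 by limma) in CDH2 shRNA and -0.08 ± 0.16 (adjusted p = 0.811) in Cx43 shRNA. TOP2A, which untangles sister chromatids, had 8.33, 8.47 and 8.19 in scramble, 8.58, 8.58 and 8.79 in CDH2 shRNA, and 8.70 and 8.55 in Cx43 shRNA. All knockdown libraries were above scramble, at 0.32 ± 0.12 (adjusted p = 0.114) and 0.29 ± 0.14 (adjusted p = 0.288). In bulk RNA, a different share of dividing cells and a different amount of the RNA in each of them cannot be told apart.

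**Figure D4:**
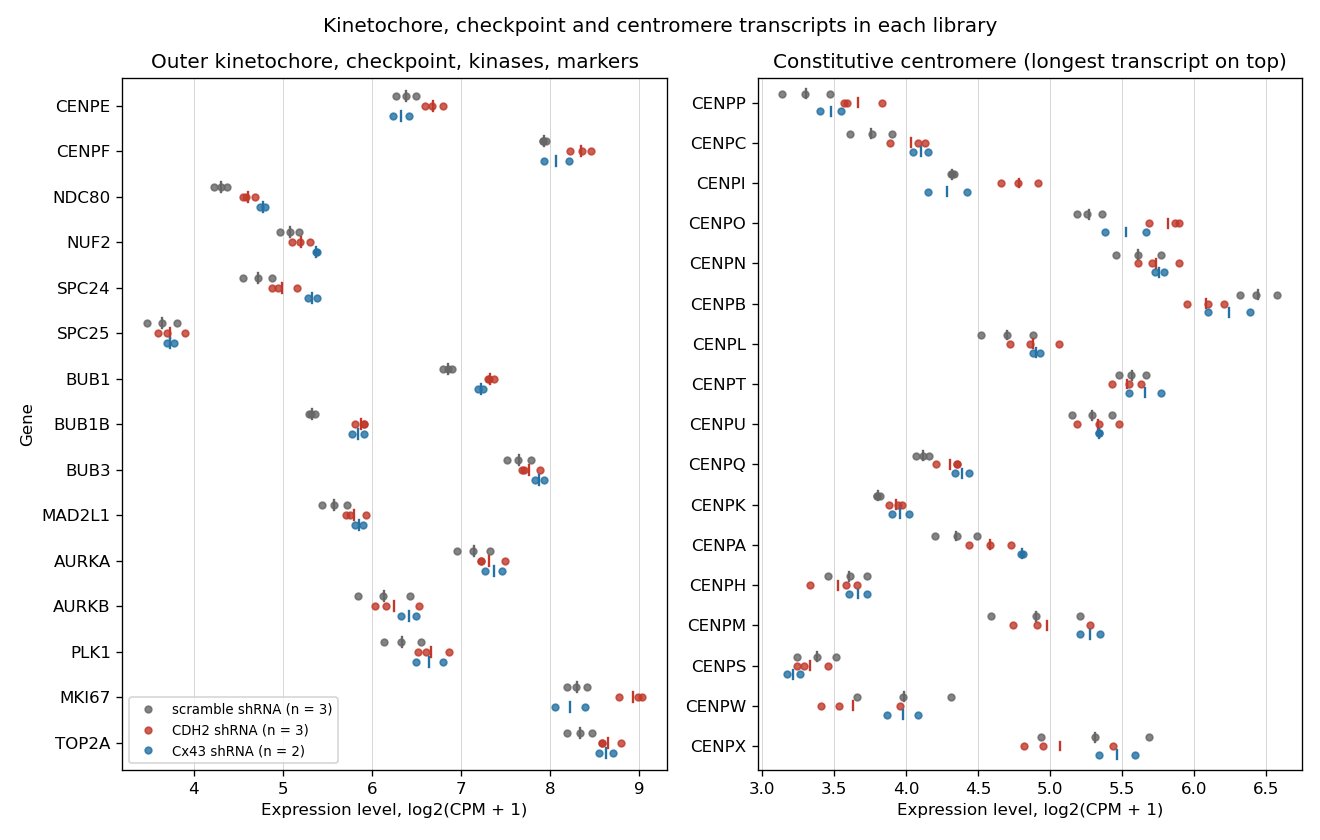
Level in log2(CPM + 1) on the x axis of outer kinetochore, NDC80 complex, checkpoint, kinase and proliferation genes (left) and of the 17 constitutive centromere genes, ordered by transcript length (right). Points are libraries and vertical lines are means of scramble, CDH2 shRNA and Cx43 shRNA. MKI67 was at 8.77 to 9.03 in CDH2 shRNA and at 8.05 to 8.41 in the other groups, and CENPX, the shortest centromere transcript, overlapped in all groups.

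The direct comparison asked whether the knockdowns differed from each other. No member was called, beside 0.00% of all genes. At an unadjusted p under 0.05, 9 members were higher in CDH2 shRNA than in Cx43 shRNA beside 8.65% of all genes, and KIFC2 and KIFC3 were lower beside 11.4%. The difference was above 0 in 34 of 70 members beside 45.2% of all genes. MKI67 differed by 0.71 ± 0.16 on the log2 scale (SE; adjusted p = 0.138 by limma), CENPI by 0.50 ± 0.13 (adjusted p = 0.156), KIF26B by 0.44 ± 0.10 (adjusted p = 0.136) and KIF24 by 0.38 ± 0.11 (adjusted p = 0.171). After the length and GC correction MKI67 gave 0.44, CENPI 0.38, KIF26B 0.18 and KIF24 0.24. Without it KIF11 differed by -0.03 ± 0.08, BUB1B by 0.03 ± 0.10 and KIF15 by -0.01 ± 0.10, and the median over the mitotic kinesins was 0.08. Without the replicate block 11 of 70 were called, beside 21.5% of all genes, and without CDH2 shRNA replicate 3 or scramble replicate 3 there were 10, beside 16.5%. A difference that missed the threshold does not show that the knockdowns were alike.

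Transcript length moved with these differences. Over 68 members, Pearson's r between the log2 fold change and the log2 transcript length was 0.44 in CDH2 shRNA, -0.21 in Cx43 shRNA and 0.69 in the direct comparison, as a description across genes that share libraries. Over 11889 genes r was 0.45, 0.10 and 0.45. In the longest class, of 5 kb or more, the median log2 fold change in CDH2 shRNA was 0.27 over 28 members beside 0.20 over all genes. In the class of 2 to 5 kb it was 0.20 over 28 members beside 0.02, and under 2 kb it was 0.10 over 12 members beside -0.20. The median of the members was above that of all genes in each class, and by least in the longest. In Cx43 shRNA the medians of the members were 0.21, 0.24 and 0.11 from the shortest to the longest class, beside -0.02, 0.06 and 0.07.

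Corrected within each library for length and GC content, the mitotic kinesins had a median log2 fold change of 0.35 in CDH2 shRNA and 0.33 in Cx43 shRNA, and the transport kinesins -0.07 and 0.07. KIF14 gave 0.50 (adjusted p = 0.0329 by limma) after the correction and BUB1B 0.43 (adjusted p = 0.0394), and both stayed called in CDH2 shRNA. KIF11 gave 0.27 (adjusted p = 0.0846), KIF23 0.37 (adjusted p = 0.0759), BUB1 0.34 (adjusted p = 0.0601) and MKI67 0.41 (adjusted p = 0.128), and were no longer called. The same held for KIF4A, KIF15, KIF18A, KIF26B and CENPI. CENPA, with a short transcript of 1.39 kb, gave 0.36 (adjusted p = 0.0396) in CDH2 shRNA and 0.48 (adjusted p = 0.0487) in Cx43 shRNA, and without the correction it was not called in the model with the block. In Cx43 shRNA the other 3 called after it were CENPV at 0.47 (adjusted p = 0.0398), SPC24 at 0.65 (adjusted p = 0.0422) and KIF9 at -0.38 (adjusted p = 0.045). The part of length and GC content in the differences beyond this correction was not tested.

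**Figure D5:**
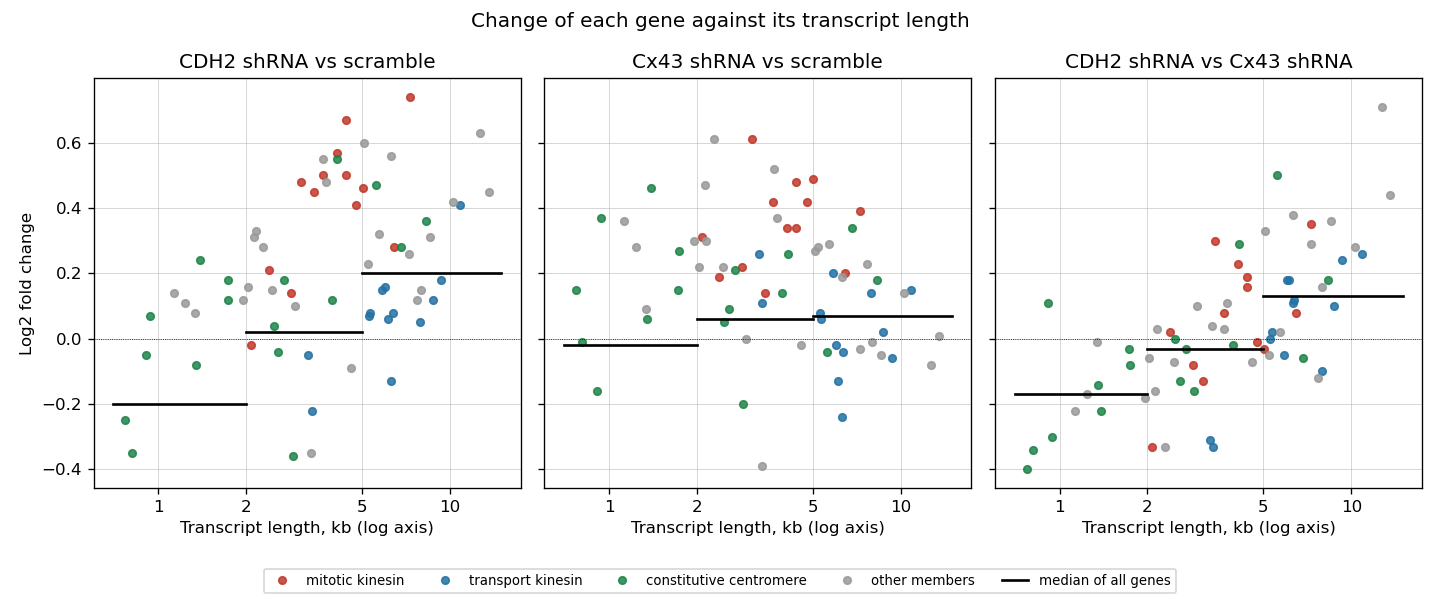
Log2 fold change (y axis) of the 68 members with a known transcript length against that length in kb (x axis, log scale), for CDH2 shRNA and Cx43 shRNA against scramble and for CDH2 shRNA against Cx43 shRNA, with mitotic kinesins in red, transport kinesins in blue, constitutive centromere genes in green and other members in grey. Black lines are the medians of all genes under 2 kb, of 2 to 5 kb and of 5 kb or more, and Pearson's r over the members was 0.44, -0.21 and 0.69.

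Partners of the members in mitosis were taken from 3 lists of 70 genes in all. In CDH2 shRNA 20 of the 70 were called higher by limma, beside 7.29% of all genes, and none lower, beside 6.98%, with a median log2 fold change of 0.24. After the length and GC correction 14 were called higher, beside 6.71% of all genes, of which 13 were among the 20. None of the 70 was called in Cx43 shRNA, where 30 were higher and CDC25B lower at an unadjusted p under 0.05, beside 12.2% and 9.41% of all genes, and the median was 0.24. As for the members, no partner was called in CDH2 shRNA without CDH2 shRNA replicate 1 or 2, Cx43 shRNA replicate 1 or 2, or scramble replicate 1. In these fits 0.00% of all genes were called, or 0.0773% without scramble replicate 1.

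The list of the passenger complex, spindle and cytokinesis held most of these calls. In CDH2 shRNA 11 of its 20 genes were called higher, beside 7.29% of all genes, with a median of 0.36. ANLN, the anillin scaffold of the contractile ring, had the highest log2 fold change in both knockdowns, at 0.86 ± 0.10 (SE; adjusted p = 0.0189 by limma) and 0.71 ± 0.11 (adjusted p = 0.0541). ASPM, a spindle pole protein, was at 0.74 ± 0.09 (adjusted p = 0.0198) and 0.36 ± 0.10 (adjusted p = 0.134). These 2 were past the fold threshold of the study methods in CDH2 shRNA. After the length and GC correction ANLN gave 0.68 and ASPM 0.47 there, both below that threshold. The lowest of the list were NUMA1 at -0.12 ± 0.11 in CDH2 shRNA and TACC3 at 0.02 ± 0.20 in Cx43 shRNA.

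Of 25 further kinetochore and checkpoint genes, 7 were called higher in CDH2 shRNA, beside 7.29% of all genes, with a median of 0.17. KNTC1, the Rod subunit that recruits dynein to kinetochores, was highest at 0.71 ± 0.14 (SE; adjusted p = 0.0339 by limma), and PMF1 of the MIS12 complex lowest at -0.22 ± 0.11. After the length and GC correction KNTC1 gave 0.47 and PMF1 0.04. In Cx43 shRNA TRIP13, which takes apart the checkpoint complex, was highest at 0.53 ± 0.13 (adjusted p = 0.11) and SGO1, which guards cohesin, lowest at -0.17 ± 0.27. Of 25 genes of mitotic entry and the anaphase-promoting complex, 2 were called higher in CDH2 shRNA, a share near the 7.29% of all genes, with a median of 0.16. They were ANAPC1, the scaffold of that complex, at 0.64 ± 0.11 (adjusted p = 0.0257) and ESPL1, the separase, at 0.51 ± 0.09 (adjusted p = 0.027). The transcription factor MYBL2 was lowest at -0.37 ± 0.29. In Cx43 shRNA the cyclin CCNA2 was highest at 0.56 ± 0.12 (adjusted p = 0.0932) and the phosphatase CDC25B lowest at -0.44 ± 0.17 (adjusted p = 0.219).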

How the data were processed

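RNA-Seq values of 8 libraries were used as deposited. The authors worked in Partek Flow, where reads were mapped to hg38 with STAR and quantified by expectation maximization. A sample of low quality was left out, and the log of CPM + 1 was taken. A batch effect among the replicates of sequencing was then removed by a shrinkage model, and genes with low values were dropped. The unit deposited by the authors is log2(CPM + 1), and libraries turned back to CPM sum to between 684411 and 727083. A batch effect removed ahead of a test can make the spread between libraries, and with it the p-values, too small.

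Tests were two-sided in limma 3.58.1 under R 4.3.3 (lmFit and eBayes). A common model for the 3 groups held a group term and the replicate number of the labels as a block. In every gene, deviations from group means cancel to within 1e-04 among libraries that share a replicate number, which is the pairing seen in the files, although the labels do not say what the numbers mark. There were 3 residual degrees of freedom, with 2.84 more borrowed by limma across genes, although the deviations vary in 2 directions. P-values were adjusted by the Benjamini-Hochberg method over 12939 genes, and a gene was called with an adjusted p under 0.05. All fold changes refer to log2(CPM + 1), where the added 1 shrinks the change of low genes. Transcript length and GC content came from the GENCODE annotation of hg38 for 91.9% of genes and 68 of the 70 members. The script was tested on simulated data with independent noise in each library. Such data lack the 2 directions of the deposited deviations, so they do not check the size of the p-values here.

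The members, the roles, the lists of partners and the tests were chosen with earlier results of these data known. Any member could be named, and the genes listed one by one, those called, and the highest and lowest of each role always were. Of the partners, those past the fold threshold and the highest and lowest of each list were named, and ESPL1 was added after its values were seen, since it completes a count. Alternatives were the fit without the block or with only the groups compared, quantile and median scaling, a pseudocount of 0.1, the 75% of genes with the highest mean, a mean-variance trend, the length and GC correction, the fold threshold, a narrower list of transport kinesins and each library left out.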

Additional observations from a re-analysis of the deposited data

How the results depend on the processing

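Medians by role, the mitotic minus transport difference and the counts of members without overlap kept their direction under quantile and median scaling, a pseudocount of 0.1, the 75% of genes with the highest mean and a mean-variance trend, and the counts of calls stayed within 1.5 times of the reported ones there. The counts depended on whether the model held the replicate block, which left 3 residual degrees of freedom in place of 5. Without the block 31 members and 35 partners were called in CDH2 shRNA, beside 43.3% of all genes. The counts were 17 and 31 in Cx43 shRNA, beside 24.3%, and 11 and 7 in the direct comparison, beside 21.5%. With only the groups compared in the fit these were 0 and 0 beside 0.00% of all genes, 13 and 21 beside 21.7%, and 1 and 1 beside 4.32%. With the length and GC correction 10 members were called in CDH2 shRNA, beside 13.3% of all genes. In Cx43 shRNA 4 members and 4 partners were called, beside 4.05%. The median of the mitotic kinesins in CDH2 shRNA was then 0.35 and that of the transport kinesins -0.07. With the fold threshold 1 member was called higher in CDH2 shRNA, beside 0.866% of all genes. Leaving out 1 library gave 0 to 24 members and 0 to 28 partners in CDH2 shRNA, beside 0.00% to 41.0% of all genes. In Cx43 shRNA there were 0 to 12 and 0 to 18, and in the direct comparison 0 to 10 and 0 to 4. Each of these stood beside 0.00% to 16.5% of all genes. The same omissions gave a median of the transport kinesins in Cx43 shRNA of -0.04 to 0.10 and of the NDC80 complex of 0.34 to 0.48. The cause was not tested. No called value changed direction under any of these alternatives. Depth is unknown, and 2 to 3 libraries a group limit the precision.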
